A study of Homo sapiens with 7 samples.

Results

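The genes described here encode the proteins of the mitochondrial ribosome, and were taken as every gene whose symbol is MRPL or MRPS followed by its number. Of 77 such symbols in the RefSeq gene table, 75 had a probe set annotated to that gene alone, out of 19775 genes with such a probe set in all. MRPL53 and MRPS24 had none and are not described. Each gene was represented by the probe set with the highest mean log2 intensity over all arrays. The cells were HSC-3, an established human oral squamous carcinoma line, and the study followed gene expression through a heat stress that leads to cell death. Control cells stayed untreated at 37 °C, and the others were heated for 90 min, either at 42 °C or at 44 °C, then returned to 37 °C for 0, 6 or 12 h. The 7 conditions were measured on Affymetrix expression arrays with total RNA, a single array for each, so no difference below has a replicate check, no test or p-value is given, and the number of arrays limits the precision.

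Mitochondria keep their own ribosomes, which translate the few messenger RNAs of the mitochondrial genome into core subunits of the respiratory chain and of ATP synthase. The ribosomal RNAs are transcribed inside the organelle, whereas every ribosomal protein is encoded in the nucleus, made in the cytosol and imported. Some of these proteins descend from bacterial ribosomal proteins, and others were added in the mitochondrial lineage. The large subunit joins amino acids and holds the exit tunnel, and the small subunit reads the messenger RNA. Of the measured genes, 50 belong to the large subunit, MRPS30 and MRPS18A among them despite their names, and 25 to the small subunit. A bacterial counterpart is known for 45 of them.

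Across all probe sets the median intensity of an array lay between 18.7 and 32.1. Against the control, the shift of an array's median over the probe sets above the floor on all arrays was -0.13, 0.24 and 0.16 log2 units at 0, 6 and 12 h after 42 °C, and 0.40, -0.07 and -0.35 after 44 °C, so medians of the genes are given beside those of other genes on the same array. The 14973 genes that reached the pooled median intensity of 21.35 (the floor) on any array are called tested genes, and the 8467 whose mean level was at least 4 times the floor are called bright genes. All 75 mitochondrial ribosomal protein genes were bright, with intensities from 53.0 (MRPL2) to 10746 (MRPL3). The heat treatment was visible in HSPA6, a heat-inducible chaperone, which read 4.82 in the control, below the floor, 12566 right after 42 °C and 5143 right after 44 °C. All 6 squamous epithelial markers with a probe set were bright on every array, while 2 of 4 leukocyte markers and 1 of 5 endothelial markers reached the floor. COL1A1 was the one fibroblast marker, of 6, that was bright on all arrays. It rose 2.20-fold at 6 h after 44 °C, where 1.49% of tested genes rose. The summed intensity of the fibroblast markers was 203 to 419.5 over the arrays and that of the squamous markers 41324 to 60124, and their part in the results was not tested. In bulk RNA of this kind, fewer cells and less RNA per cell cannot be told apart.

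A gene was counted as risen or fallen where it differed by at least 2-fold in the same direction in the deposited values, after quantile normalization and after a shift of each array's median. No mitochondrial ribosomal protein gene did so against the control on any of the 6 heated arrays, which share that 1 control array. Among all tested genes the percentage called in either direction was 4.57, 3.46 and 2.33 at 0, 6 and 12 h after 42 °C, and 2.8, 4.11 and 5.24 at 0, 6 and 12 h after 44 °C. Over the 6 heated arrays together, 13.3% of tested genes and 9% of bright genes passed at least once. Of 1532 genes outside the group whose mean level lay between the quartiles of these genes, called genes of similar level below, 4.37% passed. At a lower bar of 1.5-fold, 6 of the 75 passed on some heated array, all upward, which is 8% against 22.1% of the genes of similar level. Among cytosolic ribosomal protein genes 1.75% passed in either direction, and among nuclear genes of oxidative phosphorylation 6.06% did. MRPS30 was the 1 that passed at 6 h after 42 °C, where 6.58% of tested genes did so upward, and MRPL55 the 1 at 12 h, where 4.88% did. MRPL2, MRPL4 and MRPS34 passed right after 44 °C, where 9.3% of tested genes did, and MRPL4, MRPL55 and MRPS26 at 6 h after 44 °C, where 5.83% did.

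The differences were small but leaned one way after the higher temperature. Right after 44 °C the median mitochondrial ribosomal protein gene was 0.63 log2 units above the control and 72 of 75 were above it. That array read high as a whole, with the bright genes at a median of 0.46, so the genes lay 0.17 above the bright genes and 0.16 above the genes of similar level. At 6 h after 44 °C their median was 0.25, against 0.014 for bright genes and 0.064 for genes of similar level, a lead of 0.24 and 0.19. At 12 h after 44 °C their median was -0.074 against -0.30 and -0.25, a lead of 0.22 and 0.18. These genes were thus above the bright-gene median in 54, 65 and 59 of 75 cases at 0, 6 and 12 h, or 72.0%, 86.7% and 78.7%, where the genes of similar level had 50.9%, 55.5% and 53.5%. The lead over bright genes was smaller after quantile normalization, at 0.14, 0.10 and 0.10. Against all tested genes, many of them dimmer, the lead as deposited was 0.25, 0.25 and 0.088.

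**Figure D1:**
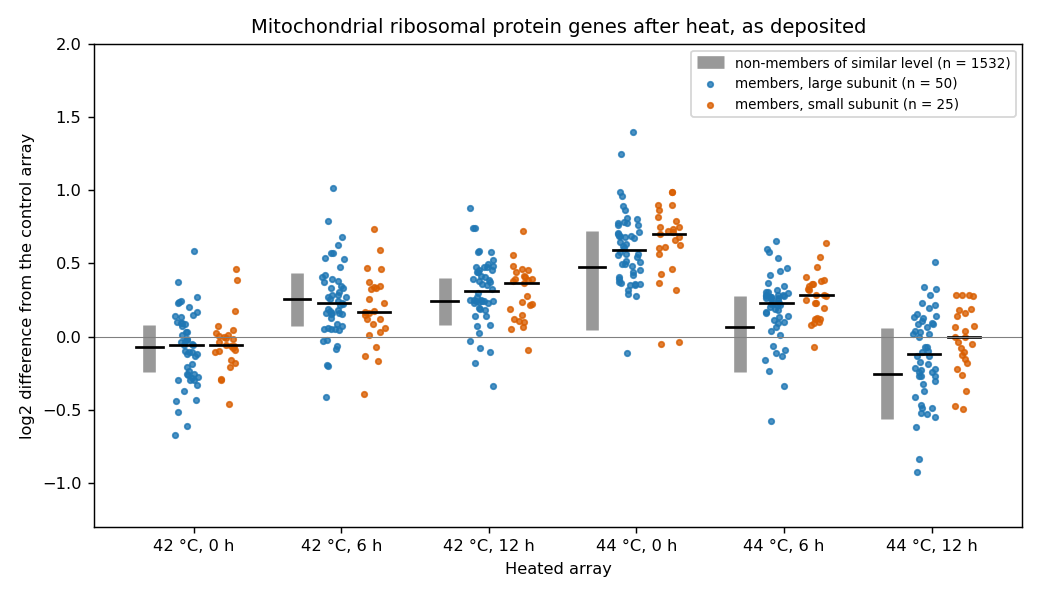
Each point is 1 mitochondrial ribosomal protein gene on 1 heated array, as its log2 difference from the control array (vertical axis), with the large subunit in blue and the small subunit in orange; black lines are medians and grey bars the interquartile range of the 1532 genes of similar level. Most points lie above 0 right after 44 °C, where 72 of 75 exceed the control, and the median is near 0 at 12 h (-0.074). Whole arrays shifted by 0.40 and -0.35 log2 units at these times, and the lead over bright genes was 0.17 and 0.22.

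After 42 °C the group stayed close to the rest of the array. Right after heating, its median was -0.057 against -0.11 for bright genes, and 27 of 75 were above the control. At 6 h the median was 0.21, 0.050 below the bright genes, and 31 of 75 lay above the bright-gene median. At 12 h the median was 0.33 against 0.22, a lead of 0.11 over bright genes and of 0.079 over genes of similar level, with 53 of 75 above the bright-gene median. Against all tested genes the lead was 0.0091, 0.088 and 0.24 at the 3 times. Of the 75, 9 genes lay below the bright-gene median on all 3 arrays after 42 °C, MRPL2, MRPL17, MRPL19, MRPL24, MRPL51, MRPL57, MRPS21, MRPS27 and MRPS31, or 12% against 17.4% of genes of similar level. This holds for the chosen probe sets. Further bright probe sets of MRPL57 gave 0.24, 0.33 and 1.01, and 0.66, 0.78 and 0.77, above that median each time. That of MRPS31 gave 0.32 at 12 h, also above it.

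The genes also stayed closer to one another than other genes of their level did. The interquartile range of their log2 differences from the control was 0.32, 0.20 and 0.38 at 0, 6 and 12 h after 44 °C, where the genes of similar level spread over 0.68, 0.52 and 0.62. After 42 °C the ranges were nearer to each other, at 0.29, 0.29 and 0.26 against 0.32, 0.36 and 0.32. On all 3 arrays after 44 °C, 46 of 75 genes lay above the bright-gene median (61.3%, against 39.6% of genes of similar level) and 5 below it, MRPL16, MRPL17, MRPL34, MRPL44 and MRPL50 (6.67%, against 33.3%). The nuclear genes of oxidative phosphorylation had 69.7% above and 0% below on these arrays. The counts of 46 and 5 hold for the chosen probe sets. Further bright probe sets of MRPL43 stayed above the bright-gene median on all 3 arrays, and that of MRPL44 stayed below it. Those of MRPS30, a gene among the 46, were below it each time, at -0.22, -0.83 and -1.31, and 0.27, -0.22 and -1.28. A second bright probe set of MRPL50 gave 0.58 right after 44 °C, above that median. The 15 genes above that median on all 6 heated arrays were MRPL4, MRPL11, MRPL27, MRPL28, MRPL30, MRPL32, MRPL36, MRPL37, MRPL43, MRPL47, MRPL55, MRPS2, MRPS6, MRPS12 and MRPS16, or 20% against 13.0% of genes of similar level and 33.3% of oxidative phosphorylation genes. Further bright probe sets of MRPL4 also stayed above it on all 6, but those of MRPL30, MRPL43, MRPS12 and MRPS16 did not all do so. That of MRPS16 gave -0.17, -0.10 and -0.21 at 0, 6 and 12 h after 42 °C, below it each time. From the lowest to the highest of the 7 arrays a gene moved by a median of 0.84 log2 units, with the ends of this range at 0.39 (MRPL13) and 2.01 (MRPL2).

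**Figure D2:**
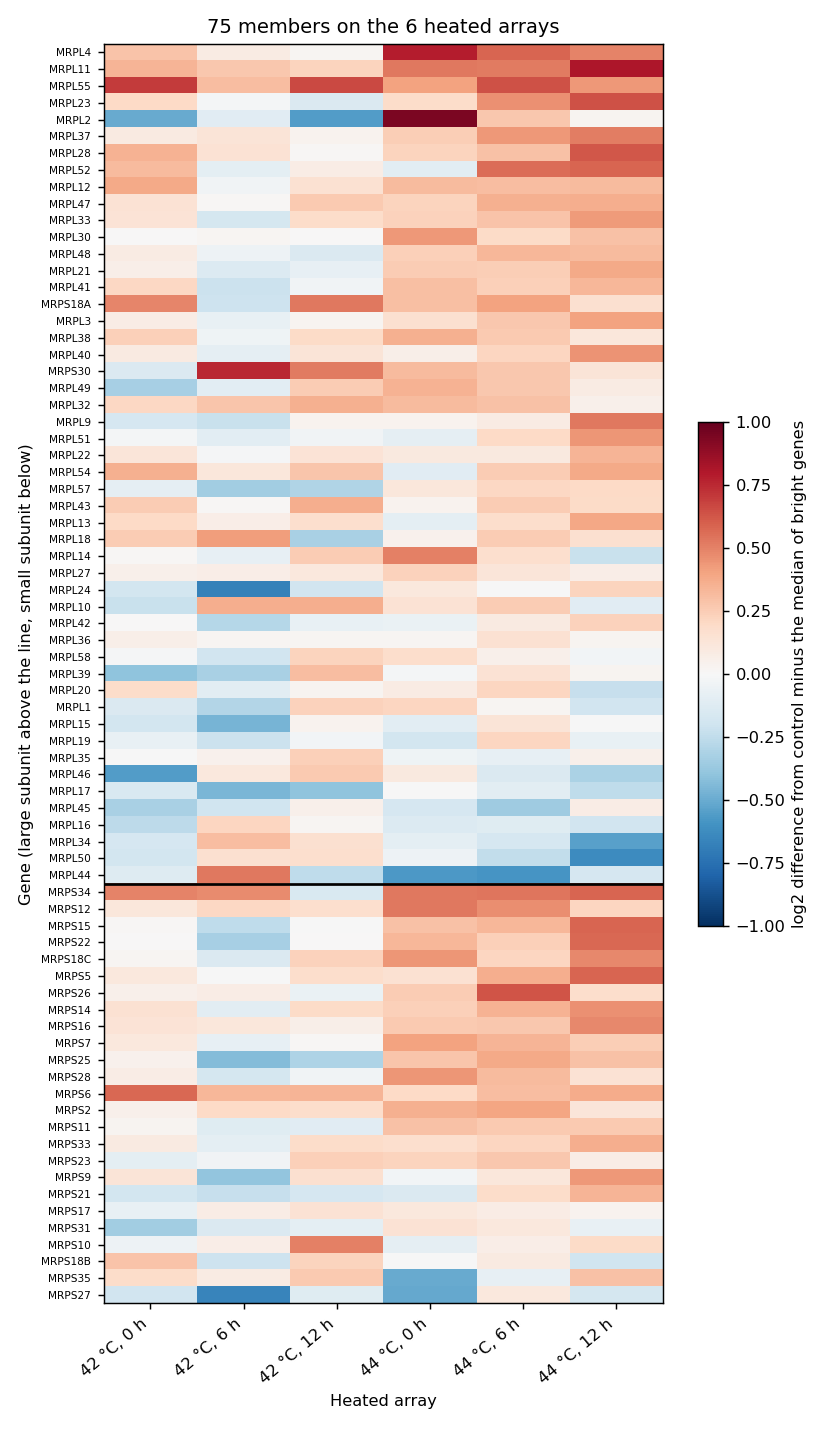
Each row is 1 of the 75 genes (50 of the large subunit above the black line, 25 of the small subunit below) and each column 1 heated array; colour gives the log2 difference from the control minus the median of bright genes, red above and blue below. The 3 columns after 44 °C are mostly red, and MRPL34, MRPL44 and MRPL50 at the foot of the large subunit are blue in all 3.

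The 25 small subunit genes and the 50 large subunit genes are given side by side. At 0, 6 and 12 h after 44 °C the small subunit median lay 0.24, 0.27 and 0.29 above the bright genes and the large subunit median 0.13, 0.21 and 0.18 above them. After quantile normalization these were 0.17, 0.16 and 0.21 for the small subunit and 0.10, 0.062 and 0.051 for the large. In the small subunit 24 of 25 genes exceeded the bright-gene median at 6 h after 44 °C, and in the large subunit 41 of 50 did. At 6 h after 42 °C both were below the bright genes, by 0.098 for the small and 0.036 for the large subunit. Right after 42 °C the large subunit lay 0.054 above the bright genes as deposited and 0.022 below them after quantile normalization. Genes with a bacterial counterpart and the remainder had a lead over bright genes of 0.21 and 0.13 right after 44 °C, 0.25 and 0.23 at 6 h, and 0.26 and 0.18 at 12 h. The difference between these classes was not tested.

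Individual genes are given below by their intensities in a fixed order, control first, then 0, 6 and 12 h after 42 °C, then 0, 6 and 12 h after 44 °C. Levels of different probe sets cannot be compared with each other. Among the proteins around the catalytic centre and the exit tunnel, MRPL2, which lies by the peptidyl transferase centre, read 81.2, 53.0, 90.3, 64.3, 214, 98.7 and 67.3. The array taken right after 44 °C was the high one, 1.40 log2 units above the control as deposited, 1.06 with quantile normalization and 0.999 with each median shifted. MRPL4, a protein that lines the exit tunnel, read 618, 696, 784, 730.2, 1469, 935 and 709. It was above the control on every heated array, with its peak also right after 44 °C, at 1.25 log2 units, and with 0.60 at 6 h. The 2 other probe sets of MRPL4 gave 0.77 and 0.73 right after 44 °C.

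Other tunnel and core proteins moved less. MRPL23, a protein of the tunnel exit, read 1804, 1912, 2135, 1897, 2821, 2497 and 2279, and all 6 heated arrays were above the control. MRPL24, also of the tunnel exit, read 972, 792, 732, 990.4, 1438, 978 and 924, and was lowest at 6 h after 42 °C, where it was -0.41 log2 units from the control. MRPL45, which lies near the tunnel exit and ties the ribosome to the inner membrane, read 626, 463, 652, 753, 767, 494 and 537. Its value of -0.34 at 6 h after 44 °C was among the 3 lowest of the group there. MRPL11, at the base of the stalk that recruits translation factors, read 1347, 1578, 1945, 1829, 2671, 1950.3 and 1919. It was above the control on every heated array and gave the group's highest difference at 12 h after 44 °C, 0.51.

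MRPL18, a protein of the central protuberance from which a cytosolic form is known to be made under heat shock, read 2484, 2737, 3986, 2308, 3531, 2986 and 2265. Its high arrays were 6 h after 42 °C and 0 h after 44 °C, and both 12 h arrays were below the control. MRPL28, which has a bacterial counterpart, read 376, 442, 498, 441, 605, 465 and 470.3, above the control throughout. MRPL17, likewise of bacterial descent, read 2538, 2112, 2220.2, 2239.6, 3478, 2377 and 1732, so only the array right after 44 °C exceeded the control, and at 12 h after 42 °C the gene was -0.18 log2 units from the control.

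The large subunit genes on the low side after 44 °C were a handful. MRPL44, whose protein has a fold related to ribonuclease III, read 518, 439, 894, 507, 478, 347 and 376. It was high on the array at 6 h after 42 °C, 0.79 log2 units above the control, and below the control on all 3 arrays after 44 °C, with -0.11, -0.58 and -0.46. Its second probe set gave 0.89 at 6 h after 42 °C, and 0.25, -0.59 and -1.26 at 0, 6 and 12 h after 44 °C, so the sign right after 44 °C differed between the probe sets. They also differed at 12 h after 42 °C, with -0.032 for the first and 0.58 for the second. MRPL50, a mitochondria-specific protein, read 975, 795, 1306, 1278, 1295, 828 and 513. The last of these, 12 h after 44 °C, was its low point at -0.93, and a second bright probe set gave -1.23 there.

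MRPL34, which has a bacterial counterpart, read 530.5, 438, 790.1, 689, 681, 476 and 297, and was -0.84 log2 units from the control at 12 h after 44 °C. MRPL46, a mitochondria-specific protein, read 426, 268, 551, 595, 629, 389 and 278. Both arrays at the end of heating at 42 °C and at 12 h after 44 °C were low for it, at -0.67 and -0.62. MRPL39, also mitochondria-specific, read 1577, 1105, 1508, 2270.3, 2138, 1761 and 1308, with its low array right after 42 °C at -0.51. MRPL55, which has a bacterial counterpart, read 296, 445, 440.0, 545, 539, 465 and 325, and was the highest of the group right after 42 °C (0.58), at 12 h after 42 °C (0.88) and at 6 h after 44 °C (0.65).

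MRPS30, a large subunit protein in spite of its symbol, read 1653, 1381, 3348, 2762, 2834, 2015 and 1469. Its difference of 1.02 log2 units at 6 h after 42 °C was the largest of the group on that array, but its other 2 probe sets gave -0.0039 and 0.70 there. MRPS18A, one of the human S18-type proteins and placed in the large subunit, read 207, 268, 215, 347, 350.5, 277 and 188, with 0.75 at 12 h after 42 °C. Its other bright probe set gave 0.18 there, and -0.19 right after 42 °C where the chosen one gave 0.37.

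In the small subunit, MRPS12, a protein of the decoding centre, read 1725, 1729, 2387, 2256, 3422, 2398 and 1632. Its array right after 44 °C stood out at 0.99 log2 units above the control. Other bright probe sets of MRPS12 gave 1.06 and 0.12 there. MRPS34, a mitochondria-specific protein needed for a stable small subunit, read 350.1, 457, 584, 366, 694, 511 and 426. All 6 heated arrays were above the control, with 0.38 and 0.74 at 0 and 6 h after 42 °C, and the gene passed 1.5-fold under every scaling right after 44 °C. MRPS26, a mitochondria-specific protein, read 724, 693, 913, 803, 1187, 1130.0 and 664, with both early arrays after 44 °C high and 0.64 at 6 h. MRPS6, which has a bacterial counterpart, read 1207, 1663, 1819.7, 1781, 1903, 1508 and 1268, above the control throughout and 0.46 above it right after 42 °C.

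MRPS27, which carries pentatricopeptide repeats, read 1350.3, 1097, 1026, 1445, 1306, 1469.7 and 973. It was -0.40 log2 units from the control at 6 h after 42 °C and one of 3 genes that were not above the control right after 44 °C, at -0.05. MRPS35, a mitochondria-specific protein, read 1192, 1252, 1515, 1662, 1159, 1136 and 1191 and was -0.04 from the control right after 44 °C. Its high arrays were 6 and 12 h after 42 °C. MRPS31, also mitochondria-specific, read 934, 679, 1013, 1014, 1419.8, 1015 and 722, with a low array right after 42 °C at -0.46. MRPS25, a further mitochondria-specific protein, read 611, 583, 544, 574, 1017, 801 and 609.6, below the control on the 3 arrays after 42 °C and highest right after 44 °C.

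**Figure D3:**
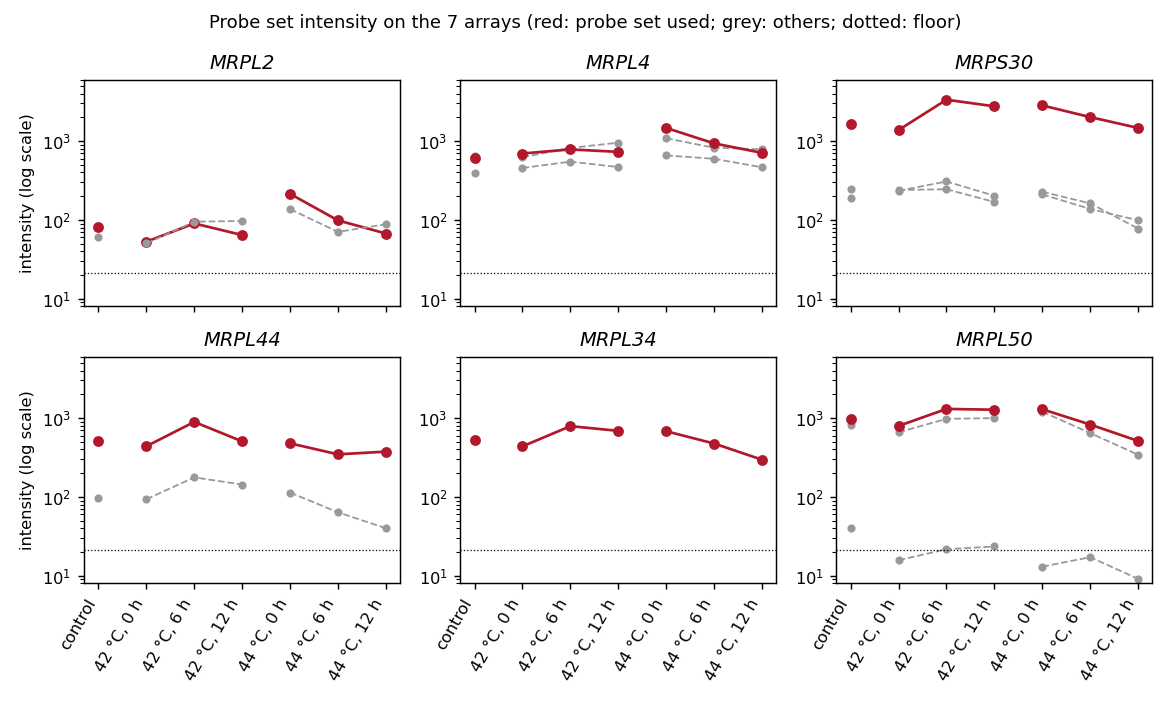
Probe set intensity (vertical axis, log scale) on the control array and on the arrays at 0, 6 and 12 h after 42 °C and after 44 °C for 6 genes, with the probe set used in red, other probe sets of the same gene in grey and the floor of 21.35 dotted. MRPL2 and MRPL4 peak right after 44 °C, MRPS30 and MRPL44 are highest at 6 h after 42 °C, and MRPL34 and MRPL50 are lowest at 12 h after 44 °C.

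Setting 44 °C directly against 42 °C at the same time uses no control array. Right after heating, 74 of 75 genes were higher on the 44 °C array, with a median of 0.69 log2 units against 0.59 for bright genes and 0.56 for genes of similar level. MRPL2 was the 1 gene that passed 2-fold under all 3 scalings, 2.01 log2 units higher as deposited, 1.46 with quantile normalization and 1.48 with each median shifted, where 2.9% of tested genes rose and 3.51% were called in either direction. Its second probe set gave 1.45. At 1.5-fold, MRPL2, MRPL46 and MRPL49 passed, all upward, against 10.8% of tested genes. MRPL49 read 1405 after 42 °C and 3331 after 44 °C at this time, and MRPL46 read 268 and 629. MRPS35 was the 1 gene lower on the 44 °C array, at -0.11, followed by MRPL54 at 0.10 and MRPL44 at 0.12.

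At 6 h the median difference between 44 and 42 °C was 0.059 log2 units, while the bright genes had -0.23 and the genes of similar level -0.19. The highest were MRPS25 at 0.56, MRPS27 at 0.52 and MRPL24 at 0.42, genes whose 42 °C arrays at this time were below the control. The lowest were MRPL44 at -1.37, MRPS30 at -0.73 and MRPL34 at -0.73, and these were genes whose 42 °C arrays were above it. No gene passed 2-fold under all 3 scalings, where 6.12% of tested genes did, and MRPL44 alone passed 1.5-fold, downward, against 11.8%. A second probe set of MRPL44 gave -1.47.

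At 12 h the median was -0.35 log2 units against -0.53 for bright genes, and 8 of 75 genes were higher on the 44 °C array. These genes were least alike in this comparison, with an interquartile range of 0.59 against 0.67 for genes of similar level. MRPL50 at -1.32, MRPL34 at -1.22 and MRPL46 at -1.10 were lowest, and MRPL23 at 0.26, MRPS34 at 0.22 and MRPL28 at 0.09 highest. None passed 2-fold under all 3 scalings, where 5.34% of tested genes did, and MRPL50 passed 1.5-fold, downward, against 10.7%.

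Other probe sets of the same genes were read separately. For 20 of the 75 genes, 31 further bright probe sets were available. Their log2 differences departed from those of the chosen probe set with an SD of 0.33, 0.41 and 0.53 at 0, 6 and 12 h after 42 °C, and 0.44, 0.33 and 0.35 after 44 °C. The further probe sets themselves had a median of 0.16, 0.076 and -0.012 against the bright genes at 0, 6 and 12 h after 44 °C, where the chosen ones over all 75 genes had 0.17, 0.24 and 0.22.

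The sequences around the starts of some of the genes hold recurrent short motifs, shown here because the choice of genes did not use them. RefSeq promoter windows of 300 bases, 250 before the start and 50 after it (build GRCh38.p14), were matched for 67 of the 75 genes. Both strands were searched for CCGGAAG, a core bound by ETS factors such as GABP, for AAGATGGCG, bound by YY1, for GCGCATGCG, bound by NRF1, and for TTCNNGAA, a core of the heat shock element. Capitals mark the matches in the 120 bases before the start. The windows of MRPS34, MRPS22 and MRPL52 carry repeated matches, MRPS26 carries 1, and MRPL4 and MRPL44, a high and a low gene after 44 °C, carry none of the 4 motifs. MRPS34 lies at chr16:1773135-1773254 on the minus strand, MRPS26 at chr20:3045932-3046051, MRPS22 at chr3:139343874-139343993, MRPL52 at chr14:22829767-22829886, MRPL4 at chr19:10251831-10251950 and MRPL44 at chr2:223957343-223957462, the last 5 on the plus strand.
MRPS34: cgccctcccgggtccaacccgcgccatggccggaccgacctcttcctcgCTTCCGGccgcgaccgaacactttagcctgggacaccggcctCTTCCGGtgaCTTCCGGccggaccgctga
MRPS26: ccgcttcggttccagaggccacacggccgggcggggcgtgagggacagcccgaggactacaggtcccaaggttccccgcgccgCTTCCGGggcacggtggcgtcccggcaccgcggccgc
MRPS22: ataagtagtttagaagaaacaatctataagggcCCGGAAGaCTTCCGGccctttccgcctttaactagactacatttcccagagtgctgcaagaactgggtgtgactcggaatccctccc
MRPL52: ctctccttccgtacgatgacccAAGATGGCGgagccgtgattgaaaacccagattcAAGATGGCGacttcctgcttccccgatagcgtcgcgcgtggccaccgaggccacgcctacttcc
MRPL4: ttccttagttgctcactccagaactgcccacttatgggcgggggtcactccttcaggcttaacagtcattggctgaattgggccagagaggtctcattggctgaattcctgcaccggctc
MRPL44: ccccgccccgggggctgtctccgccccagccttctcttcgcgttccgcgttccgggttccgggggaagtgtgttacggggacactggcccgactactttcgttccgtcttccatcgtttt

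The ETS letters were in 28 of the 67 windows (41.8%), against 17.0% of 11914 tested genes with a window and 10.7% of all 27305 windows. In 21 of the 28 a match lay within 100 bases before the start. The YY1 letters were in 12 (17.9%), against 3.44% and 1.85%, with a match after the start in 9 of the 12. The NRF1 letters were in 3 (4.48%), against 3.27% and 2.10%. The heat shock element letters were in 8 (11.9%), against 6.34% and 7.84%, and in 3 of these 8 they overlapped an ETS match. At least one of the ETS, YY1 and NRF1 motifs was present in 37 windows (55.2%), against 21.9% and 13.6%, and ETS and YY1 occurred together in 4. The windows were no richer in G and C than those of tested genes, with a median of 60.3% against 64.3%. A match is a description of the letters and not a binding site.

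**Figure D4:**
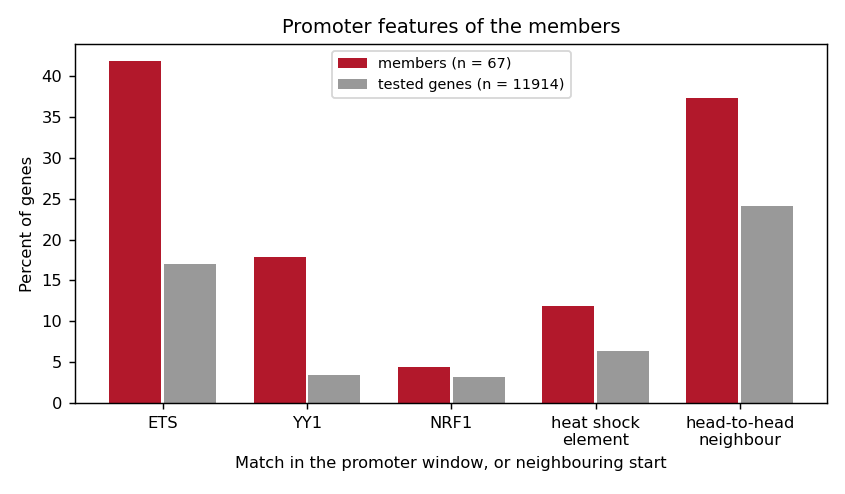
Bars give the percent of genes (vertical axis, from 0) whose promoter window holds each motif or whose start faces a neighbouring start within 1000 bases, for 67 mitochondrial ribosomal protein genes in red and 11914 tested genes in grey. The red bars are the higher for ETS (41.8% against 17.0%) and YY1 (17.9% against 3.44%). They are also higher for the heat shock element (11.9% against 6.34%) and facing starts (37.3% against 24.1%), and for NRF1 the bars are close (4.48% against 3.27%).

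Medians of the genes with and without the ETS letters are given side by side, and the difference was not tested. Right after 44 °C the 28 with a match had a median of 0.68 log2 units above the control and the 39 without had 0.58, followed by 0.27 and 0.22 at 6 h, and 0.029 and -0.098 at 12 h. After 42 °C the order turned at 12 h, with -0.024 and -0.080 at 0 h, 0.22 and 0.18 at 6 h, and 0.31 and 0.37 at 12 h. GABPA, the DNA-binding subunit of GABP, read 195, 236, 351, 175, 126, 115 and 97.0 in the same order of arrays. Of the 3 pairs of arrays at equal times it fell 3.06-fold at 44 against 42 °C at 6 h, where 4.45% of tested genes fell.

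A start facing the start of another gene within 1000 bases was found for 25 of the 67 genes (37.3%), against 24.1% of tested genes with a window. MRPL46 and MRPS11 face each other at 320 bases. MRPL46 was -0.67 log2 units from the control right after 42 °C and -0.62 at 12 h after 44 °C, and MRPS11 was -0.08 and -0.04. Right after 44 °C both were above the control, by 0.56 and 0.75. MRPL50 faces ZNF189, a zinc finger gene, at 233 bases. ZNF189 was -0.73, -0.85 and -0.83 from the control at 0, 6 and 12 h after 44 °C, where MRPL50 was 0.41, -0.24 and -0.93, so the pair differed most right after heating. MRPS12 faces SARS2, the mitochondrial seryl-tRNA synthetase, at 181 bases, and right after 44 °C the first was 0.99 and the second 0.71 above the control.

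The other genes of mitochondrial and cytosolic translation were described from lists of named genes. Cytosolic ribosomal protein genes (57 measured) had 0 members past 2-fold in any of the 9 comparisons. Their median was 0.16 below the bright genes right after 44 °C and 0.43 above them at 12 h, but after quantile normalization these values were -0.086 and -0.0074, so their place relative to other genes rested on the scaling. Nuclear genes of oxidative phosphorylation (66 measured), which encode the partners of the proteins made by mitochondrial ribosomes, also had 0 past 2-fold. Their lead over bright genes was 0.11, 0.30 and 0.46 at 0, 6 and 12 h after 44 °C as deposited, and 0.035, 0.091 and 0.13 after quantile normalization. Of the 14 measured mitochondrial translation factors 0 were called, with medians 0.13 below, 0.16 above and 0.097 above the bright genes at those times.

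Several factors that build the mitochondrial ribosome were called. Of 24 measured assembly factors, 0 rose and 3 fell right after 42 °C, where 3.11% of tested genes fell. They were DDX28, a helicase of large subunit assembly (166 to 51.9, 3.21-fold), MRM1, which methylates the large ribosomal RNA (97.2 to 32.9, 2.96-fold), and MTERF4, which guides the methyltransferase NSUN4 to the ribosome (327 to 114, 2.87-fold). The list's median was 0.28 below the bright genes on that array, with 5 of 24 above their median. MRM1 was the 1 that fell at 6 h after 42 °C, by 3.66-fold, where 1.95% of tested genes fell. DDX28 also fell at 6 and 12 h after 44 °C, by 4.17-fold (to 39.8) and 3.45-fold (to 48.2). It was the 1 assembly factor called on each of these arrays, where 2.62% and 3.53% of tested genes fell. Against 42 °C at the same time, NSUN4 and MRM1 rose 3.42-fold and 3.27-fold right after 44 °C, where 2.9% of tested genes rose. At 6 h DDX28 and MTERF4 fell 5.30-fold and 3.10-fold, where 4.45% of tested genes fell, and 1 dimmer assembly factor rose, where 1.68% rose. At 12 h DDX28 and FASTKD2, which binds the large ribosomal RNA, fell 3.15-fold and 3.13-fold, where 3.59% of tested genes fell.

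In the list of 13 mitochondrial transcription and RNA genes, MTERF1, a transcription termination factor, read 156, 102, 252, 105, 63.5, 35.3 and 48.2. It fell 2.46-fold, 4.42-fold and 3.23-fold at 0, 6 and 12 h after 44 °C, and was the 1 gene of the list called there, where 0.675%, 2.62% and 3.53% of tested genes fell. At 6 h it also fell 7.13-fold at 44 against 42 °C, and so did TEFM, a transcription elongation factor, by 3.72-fold, the 2 calls of the list in that comparison, where 4.45% of tested genes fell. Of 15 measured mitochondrial aminoacyl-tRNA synthetases, MARS2, which charges methionyl-tRNA, fell 3.19-fold right after 42 °C (109 to 34.1) and 3.62-fold at 12 h after 44 °C (109 to 30.1). It was the 1 call on each array, where 3.11% and 3.53% of tested genes fell. A dimmer synthetase was the 1 that fell at 6 h after 44 °C, where 2.62% of tested genes fell. YARS2, which charges tyrosyl-tRNA, was the 1 that rose at 12 h after 42 °C, by 2.36-fold, where 0.968% of tested genes rose. At 44 against 42 °C, PARS2, which charges prolyl-tRNA, was the 1 that fell at 6 h, by 5.15-fold, where 4.45% of tested genes fell. At 12 h YARS2, MARS2 and PARS2 fell 5.70-fold, 3.77-fold and 3.33-fold (to 408, 30.1 and 35.2), where 3.59% of tested genes did. The part of the low intensities in these folds was not tested. PPRC1, a coactivator of genes for mitochondrial proteins and the 1 of 8 measured regulators called against the control, fell 2.93-fold right after 42 °C, where 3.11% of tested genes fell. It rose 3.87-fold at 44 against 42 °C at 0 h, where 2.9% rose. Of the 4 measured proteins of the mitochondrial ribosome that carry other names, DAP3, PTCD3, CHCHD1 and GADD45GIP1, 0 were called. Their median lay 0.21 and 0.23 above the bright genes at 0 and 6 h after 44 °C, close to the 0.17 and 0.24 of the main group, and 0.27 below them at 12 h, where the main group was 0.22 above.

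**Figure D5:**
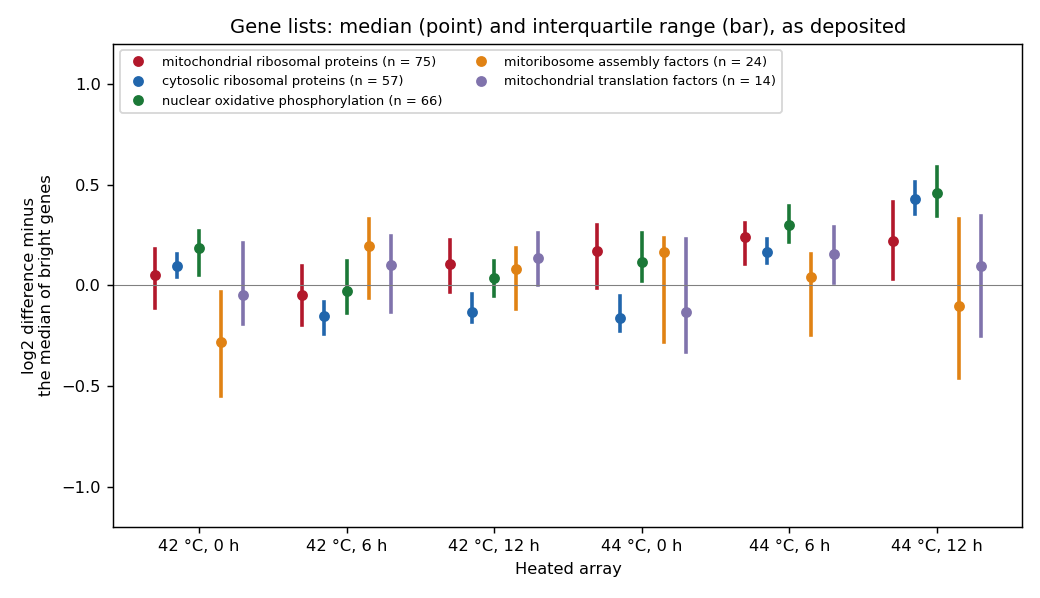
Points are the median and bars the interquartile range of each gene list on each heated array, as the log2 difference from the control minus the median of bright genes (vertical axis). The 75 mitochondrial ribosomal protein genes lie above 0 on all 3 arrays after 44 °C (0.17, 0.24 and 0.22), and the 24 assembly factors lie lowest right after 42 °C (-0.28).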

How the data were processed

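Total RNA (5 µg per sample, per the labels) of HSC-3 cells was labelled and hybridised to 7 Affymetrix arrays, 1 per condition. The values are linear probe set intensities as deposited by the authors for 54675 probe sets. The algorithm and scaling that made them are not given in the sources used here. All columns belonged to these samples. GEO's probe annotation named 1 gene for 41097 probe sets, several for 1801 and none for 11777, and symbols were updated through the RefSeq table of GRCh38.p14.

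Values under the floor (21.35, the pooled median) were set to it before log2. Differences were computed between single arrays, with a call at 2-fold under all 3 scalings, so there is no SD, n or p-value. The median shift used 20902 probe sets. The genes named in each comparison were the 3 highest and the 3 lowest log2 differences among those whose brighter value reached 4 times the floor, plus all called genes. In other lists only called genes of that brightness were named, at most 3 per list and comparison. The genes and lists were chosen with earlier results of these data known. Motifs, pairs of facing genes and lists are described without a test. Calls were tested on simulated data. Alternatives were the scaling, the floor, the probe sets used, updated symbols and the genes compared with. A comparison of protein sequence features was planned and not run. Python 3.11.15, numpy 2.4.6, pandas 2.3.3 and matplotlib 3.10.9 were used.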

Additional observations from a re-analysis of the deposited data

Results flagged for a closer look

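MRPL2 was the 1 mitochondrial ribosomal protein gene called between the 2 temperatures right after heating, with values on opposite sides of the control. It read 81.2 in the control, 53.0 after 42 °C and 214 after 44 °C, so the 44 °C array was 2.01 log2 units above the 42 °C array. Neither array differed from the control by 2-fold under all 3 scalings, and the 42 °C array was -0.61 log2 units from the control as deposited, -0.40 with quantile normalization and -0.29 in the second probe set. The difference was not tested, since there was 1 array per condition. MRPL2 was the dimmest of the group on every array, and the median of all probe sets was 18.7 right after 42 °C and 32.1 right after 44 °C. Most dim probe sets of other genes of the group were also higher on the 44 °C array in this comparison. Those of MRPS15, MRPL57, MRPL41 and MRPL47 reached 1.88, 1.73, 1.39 and 1.33. A few did not differ, and 1 of MRPL42 and 1 of MRPL19 were lower, at -0.40 and -0.22. The part of the low intensities in the difference was not tested. In the chosen probe set the same gene was close to the control at 6 h after both temperatures, with 90.3 and 98.7. The second probe set was 0.63 log2 units above the control at 6 h after 42 °C and 0.20 at 6 h after 44 °C.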

How the results depend on the processing

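The count of mitochondrial ribosomal protein genes past 2-fold was 0 against the control on every heated array and 1 for 44 against 42 °C at 0 h when all 3 scalings had to agree. With the deposited values alone it was 1 at 6 h after 42 °C, 2 at 0 h after 44 °C, and 8, 1 and 3 for 44 against 42 °C at 0, 6 and 12 h. Quantile normalization alone gave 1 at 0 h after 44 °C and the median shift alone gave 1 for 44 against 42 °C at 6 h. Without a floor, with a doubled floor, with the mean of a gene's probe sets and with symbols not updated, all 9 counts stayed the same.

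The other measure was the genes' median minus that of all tested genes, taken as moved where it changed by over 0.1 log2 units. At 6 h after 42 °C it went from 0.088 to -0.063 with quantile normalization, -0.029 with the median shift, -0.050 against bright genes and -0.046 against genes of similar level, a comparison chosen after seeing the data. At 12 h after 42 °C it went from 0.24 to 0.10, 0.11 and 0.079 with quantile normalization, bright genes and genes of similar level. At 0 h after 44 °C it went from 0.25 to 0.15 without a floor. At 12 h after 44 °C it went from 0.088 to 0.27 with the median shift, 0.20 without a floor and 0.22 against bright genes. For 44 against 42 °C it went from 0.15 to 0.028 without a floor at 0 h. At 6 h it went from 0.12 to 0.30 with quantile normalization, 0.37 with the median shift, 0.24 without a floor, 0.29 against bright genes and 0.24 against genes of similar level. At 12 h it went from -0.090 to 0.065, 0.16, 0.047, 0.17 and 0.14 under those settings and to 0.026 with a doubled floor. At 12 h after 44 °C the median of tested genes was -0.16 as deposited and 0 with the median shift, while the lead over bright genes was 0.22 in both. The cause of these moves was not tested. The mean of a gene's probe sets and symbols not updated moved none of the 9 medians by that much. No paired analysis was possible because each condition has 1 array. Each value rests on single arrays, and bright genes and all tested genes had different medians on these arrays, so the genes compared with set part of each value.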
